A study of Homo sapiens with 12 samples.

Results

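The response of SKBR-3 cells to lapatinib was measured by RNAseq after their FOXA1 had been depleted by RNAi. Its members are the 6 of 12 samples in the series that received a FOXA1 siRNA pool, chosen by their labels alone, namely 3 treated with 300 nM lapatinib for 24 h and 3 treated with DMSO for 24 h. All 20531 genes listed by the authors were considered, and the 13745 that reached 10 counts in 1 or more of the 6 samples were tested. The other 6 samples received a non-targeting (NT) siRNA pool and the same 2 treatments, with 3 samples each, and are used to set the response of FOXA1-depleted cells beside that of cells with FOXA1.

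SKBR-3 is an established breast cancer cell line with an amplified HER2 (ERBB2) gene and no estrogen receptor, so that the data describe 1 line in culture. The 4 groups are NT siRNA with DMSO, NT siRNA with lapatinib, FOXA1 siRNA with DMSO and FOXA1 siRNA with lapatinib. Each siRNA is a pool, and the labels place the drug 48 h after the siRNA. The design sets the drug response of depleted cells against that of cells with FOXA1.

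HER2 is a receptor tyrosine kinase that signals, mostly as a dimer with HER3 (ERBB3), through the RAS, MEK and ERK kinases and through PI3K and AKT. Lapatinib occupies the ATP site of the HER2 and EGFR kinases. When AKT activity falls, FOXO transcription factors stay in the nucleus and raise genes for receptors and for growth arrest, whereas loss of ERK activity lowers short-lived transcription factors and feedback inhibitors and cells stop before S phase. FOXA1 is a forkhead transcription factor that opens chromatin in luminal breast cells.

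The expected counts of the 6 libraries summed to between 29948709 and 32271850 (median 30982165). FOXA1 was checked first. FOXA1 had 1165, 1369.8 and 1571 normalized counts in the 3 DMSO samples with FOXA1 siRNA and 1641, 1892 and 2376 with lapatinib, against group means of 8522 and 12591 with NT siRNA, so that every depleted library lay below every library with NT siRNA. A normalized count here is a count scaled to the average depth of the 12 libraries. The luminal keratins and the HER2 amplicon were high, and the summed TPM of 11 identity genes of the line was between 16057 and 17081 with DMSO and between 18975 and 19910 with lapatinib. One identity gene, TFAP2B, was low, with a mean of 2.73 TPM with DMSO, and ESR1 had a mean of at most 0.57 TPM in depleted cells. Of the markers of other cells, summed leukocyte markers were between 21.9 and 29.4 TPM with DMSO and between 31.9 and 43.5 with lapatinib, most of it CD68, a lysosomal protein that epithelial cells also express, while PTPRC had means of 0.0333 and 0.143 TPM. Summed fibroblast, endothelial and basal markers reached at most 5.63, 12.2 and 6.86 TPM in a depleted library, and the part of other cells in the results was not tested. Replicate 2 stood apart from replicates 1 and 3 in each of the 4 groups. The chi-square per degree of freedom between replicates was 12.7 to 13.8 for pairs with replicate 2 in the depleted groups and 4.2 and 5.94 for the pairs of replicates 1 and 3. Main counts that moved by over 1.5 times without replicate 2 are given both ways. Nothing in the sources used here says that the replicates came from separate cultures, so the p-values measure the spread between these samples, which may be technical. In bulk RNA, fewer cells of a kind and less RNA per cell cannot be told apart.

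Lapatinib changed the transcriptome of FOXA1-depleted cells broadly. Of 13745 genes, 678 (4.93%) rose and 704 (5.12%) fell by 1 or more on the log2 scale with an adjusted p below 0.05, and 10.1% were called in either direction. With no such fold limit, 29% rose and 29.1% fell, 58.2% in all. The groups of 3 did not overlap for 65.1% of genes, so that non-overlap is common here. The median log2 fold change over all genes was 0.01.

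**Figure D1:**
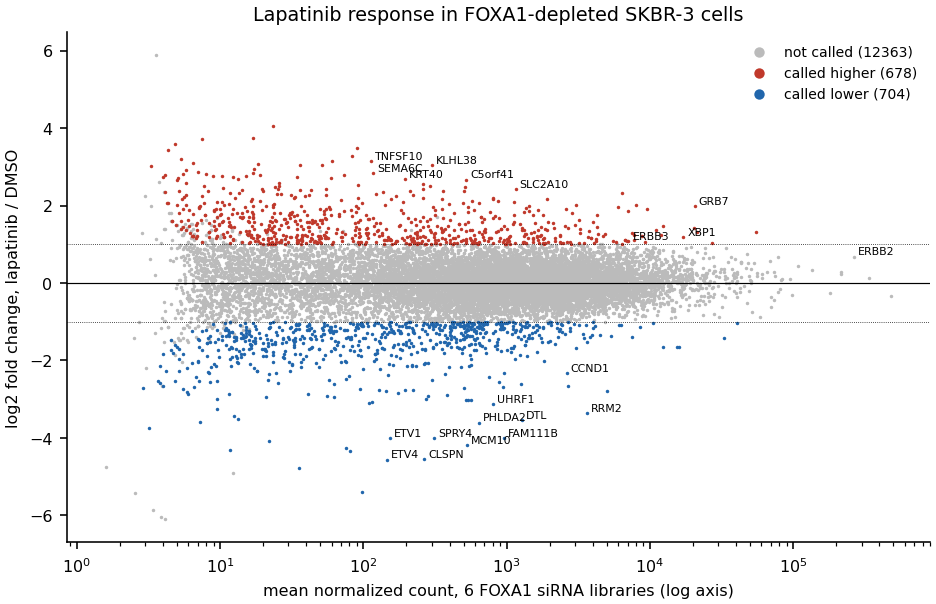
Each point is 1 of 13745 genes, placed by its mean normalized count in the 6 FOXA1 siRNA libraries (log axis) and by its log2 fold change between lapatinib and DMSO. Dotted lines mark a log2 fold change of 1 in either direction, red points are the 678 genes called higher and blue points the 704 called lower, and among the labelled genes ETV4 lies lowest (-4.56) and TNFSF10 highest (3.16).

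The largest falls, among genes with a mean of at least 100 normalized counts and no overlap between groups, included ERK targets and S phase genes. ETV4, an ETS transcription factor induced by ERK, had 235, 336 and 275 normalized counts with DMSO and 7.23, 17.3 and 10.2 with lapatinib (log2 fold change -4.56 ± 0.26, SE, adjusted p = 6.3e-06). CLSPN, a replication checkpoint protein, went from 584, 401 and 549 to 29.9, 17.3 and 17.3 (log2 fold change -4.55 ± 0.24, SE, adjusted p = 4.2e-06). Both genes were at low counts in every lapatinib library and far below DMSO. MCM10, which starts replication forks, went from 1144, 853 and 1005 to 54.7, 51 and 56.1 (log2 fold change -4.19 ± 0.14, SE, adjusted p = 1.5e-06). FAM111B (-4.0), ETV1 (-4.0), SPRY4 (-4.0), PHLDA2 (-3.6), DTL (-3.54), RRM2 (-3.37) and UHRF1 (-3.12) complete the 10 largest falls on the log2 scale.

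The largest rises, chosen in the same way, included genes of death signaling, fuel use and phosphoinositide turnover. TNFSF10, the death ligand TRAIL, had 27.1, 21.5 and 20.1 normalized counts with DMSO and 197, 248 and 161 with lapatinib (log2 fold change 3.16 ± 0.22, SE, adjusted p = 1.3e-05). PDK4, which keeps pyruvate out of the mitochondrion, went from 67.2, 109 and 50.7 to 424, 529 and 375 (log2 fold change 2.56 ± 0.25, SE, adjusted p = 6.5e-05). INPP5D, the lipid phosphatase SHIP1, went from 153, 131 and 186 to 839, 682 and 1074 (log2 fold change 2.48 ± 0.19, SE, adjusted p = 2.1e-05). The sugar transporter SLC2A10 rose from 302, 375 and 419 to 1721, 1674 and 2433 (log2 fold change 2.43 ± 0.17, SE, adjusted p = 1.4e-05). The other 6 of the 10 largest rises were KLHL38 (3.04), SEMA6C (2.83), the hair keratin KRT40 (2.68), C5orf41 (2.67; now CREBRF), YPEL2 (2.5) and PLAC4 (2.44), whose 3 lapatinib libraries ranged from 272 to 653.

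More than one receptor and ligand of the ERBB family rose with lapatinib in depleted cells. Of 9 tested, 2 rose and 1 fell past the fold limit, against 4.93% and 5.12% of all genes. At any size 5 rose and 1 fell, against 29% and 29.1%. The median log2 fold change was 0.64 against 0.01 over all genes. ERBB2 (chr17:39688094-39728658 on GRCh38) had 204125, 216076 and 198142 normalized counts with DMSO and 324394, 322779 and 333325 with lapatinib, a log2 fold change of 0.68 ± 0.04, SE, adjusted p = 5.4e-06. Its 3 lapatinib libraries lay close together and all above DMSO, below the fold limit of 1. ERBB3 (chr12:56080108-56103505), the kinase-poor partner of HER2, rose from 4523, 4774 and 4406 to 8995, 10349.9 and 9442 (log2 fold change 1.09 ± 0.06, SE, adjusted p = 4.7e-06). The ligand EGF rose from 614, 602 and 683 to 1319.7, 1406 and 1566 (log2 fold change 1.19 ± 0.08, SE, adjusted p = 1.3e-05). HBEGF, a ligand of EGFR, fell from 67.2, 99.2 and 77.4 to 27.9, 43.3 and 38.8 (log2 fold change -1.13 ± 0.23, SE, adjusted p = 0.0029), and this call was lost without replicate 2 of DMSO or replicate 1 of lapatinib, at -0.96 each.

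The response of ERBB2 was 1.01 ± 0.07 (SE) with NT siRNA and 0.68 with FOXA1 siRNA, a difference of -0.31 ± 0.08 (SE, adjusted p = 0.042). That difference passed the test by little, and it was no longer called when any one of 10 of the 12 libraries was left out (adjusted p between 0.061 and 0.11), with its sign kept in each. ERBB3 rose by 1.23 with NT siRNA, a difference of -0.13 ± 0.09 (SE, adjusted p = 0.47), and started from a lower level, with a DMSO mean of 4567 in depleted cells and 10646 in control cells. With lapatinib, ERBB3 in depleted cells had a mean of 9596, and its libraries overlapped those of untreated control cells. XBP1, a transcription factor of secretory cells, showed the same order of levels, from 9496, 11054 and 11153 with DMSO to 21714, 22129 and 27127 with lapatinib (log2 fold change 1.18 ± 0.10, SE, adjusted p = 2.7e-05), against control means of 27351 and 67597 and a difference of -0.15 ± 0.15 (SE, adjusted p = 0.63). The collagen receptor kinase DDR1 went from 13021, 13169 and 12558 to 20383, 20481 and 20844 (log2 fold change 0.69 ± 0.04, SE, adjusted p = 4.4e-06) and differed by -0.24 ± 0.07 (SE, adjusted p = 0.045), which was likewise lost when any one of 10 of the 12 libraries was left out. FOXA1 transcript itself rose by 0.54 in depleted cells and 0.6 in control cells, a difference of -0.04 ± 0.17 (SE, adjusted p = 0.93).

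Other receptor tyrosine kinases moved in both directions. Of 25 tested, 1 rose and 4 fell past the fold limit, against 4.93% and 5.12% of all genes. At any size 7 rose and 11 fell, against 29% and 29.1%, and 7 did not pass, with a median of -0.24. EPHA2 fell from 1591, 1713 and 1691 to 383, 641 and 401 (log2 fold change -1.79 ± 0.17, SE, adjusted p = 5.9e-05), and EPHA4, another ephrin receptor, from 265, 241 and 294 to 75.4, 51 and 88.7 (log2 fold change -1.88 ± 0.19, SE, adjusted p = 7.8e-05). EPHA4 fell by 0.73 with NT siRNA, a difference of -1.13 ± 0.33 (SE, adjusted p = 0.063, or 0.002 with the replicate block), which DESeq2 also called (adjusted p = 0.016). The insulin receptor INSR rose from 715, 599.7 and 661 to 1407, 1433 and 1232 (log2 fold change 1.06 ± 0.09, SE, adjusted p = 2.7e-05), with a difference from NT siRNA of -0.85 ± 0.21 (SE, adjusted p = 0.033). That difference was no longer called (adjusted p between 0.064 and 0.086) without replicate 1 or 3 of DMSO or of lapatinib with FOXA1 siRNA, or replicate 1 or 3 of DMSO with NT siRNA. FGFRL1, a decoy FGF receptor, fell by 1.07 and RET, at no more than 9.36 normalized counts, by 1.74, which DESeq2 did not call. Without replicate 2 of DMSO, FGFRL1 and INSR were no longer called (-0.835 and 0.993) and 2 receptors rather than 4 fell past the fold limit. Replicates 1 and 3 alone also left 2 that fell and none that rose past it.

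GRB7 (chr17:39737938-39747285), an adaptor protein encoded beside ERBB2 in the amplicon, had 9181, 7739 and 8278 normalized counts with DMSO and 30834, 33551 and 33748 with lapatinib (log2 fold change 1.98 ± 0.07, SE, adjusted p = 1.5e-06), higher in all 3 lapatinib samples. GRB7 rose by 2.11 with NT siRNA, a difference of -0.12 ± 0.11 (SE, adjusted p = 0.58).

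Many ERK target and feedback genes fell. Of 28 tested, 11 fell and 2 rose past the fold limit, against 5.12% and 4.93% of all genes. At any size 14 fell and 5 rose, against 29.1% and 29%, with a median of -0.77. Beside ETV4, the ETS factor ETV1 went from 289, 284 and 293 to 16.5, 21.2 and 15.3 (log2 fold change -4.0 ± 0.15, SE, adjusted p = 1.7e-06). SPRY4, a Sprouty feedback inhibitor of receptor signaling, went from 524, 662 and 569 to 32, 45.2 and 30.6 (log2 fold change -4.0 ± 0.16, SE, adjusted p = 2.3e-06). CCND1, cyclin D1 (chr11:69641156-69654474), went from 3942, 5188 and 3998 to 722, 1234 and 623 (log2 fold change -2.33 ± 0.23, SE, adjusted p = 7.4e-05), with replicate 2 the highest in both groups. Its response did not differ past the test from that with NT siRNA, -2.18, with a difference of -0.14 ± 0.31 (SE, adjusted p = 0.86). The rises of EGR2 (1.9) and EGR3 (1.36) rest on at most 21.4 and 9.63 normalized counts, and neither was called without replicate 3 of lapatinib. With DMSO they reached at most 7.65 and 4.01. EGR3 was also not called by DESeq2 (adjusted p = 0.16), with all 12 samples in one model, or without replicate 2 or 3 of DMSO. With at least 10 counts in every sample, none of the list rose and 9 fell past the fold limit. Without replicate 1 of lapatinib, 7 genes of the list fell.

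The response of MYC, an ERK-responsive transcription factor, differed between the 2 kinds of cells. MYC had 10184, 10388 and 10925 normalized counts with DMSO and 10413, 10669.5 and 10279 with lapatinib (log2 fold change 0.01 ± 0.04, SE, adjusted p = 0.86), and the groups overlapped. With NT siRNA it fell by 0.5, from a mean of 6174 to 4276, and the difference was 0.52 ± 0.09 (SE, adjusted p = 0.0046). Its level was thus higher in depleted cells under both treatments.

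Many genes of the PI3K and AKT pathway and targets of FOXO factors rose. Of 36 tested, 13 rose and none fell past the fold limit, against 4.93% and 5.12% of all genes. At any size 24 rose and 3 fell, against 29% and 29.1%, with a median of 0.63. TXNIP, an inhibitor of thioredoxin and of glucose uptake, had 3111, 3059.5 and 3037 normalized counts with DMSO and 10409, 11874 and 10790.5 with lapatinib (log2 fold change 1.86 ± 0.05, SE, adjusted p = 1.5e-06). FBXO32, the ubiquitin ligase atrogin-1, rose from 2385, 1968 and 2025 to 10086, 11219 and 10526 (log2 fold change 2.34 ± 0.08, SE, adjusted p = 1.5e-06). The 6 libraries fell into 2 tight, well-separated groups for both genes, which were named for their small p, so this is no separate support. PIK3IP1, an inhibitor of PI3K, rose from 620.0, 599 and 525 to 2222, 2249.8 and 2324 (log2 fold change 1.98 ± 0.07, SE, adjusted p = 1.5e-06), and BCL6, a transcriptional repressor, from 599.9, 529 and 577 to 1667, 1613 and 1765 (log2 fold change 1.58 ± 0.07, SE, adjusted p = 2.5e-06). IRS2, an adaptor of the insulin receptor picked out after its values were seen, rose from 13, 10.3 and 13.4 to 102, 112 and 109 (log2 fold change 3.14 ± 0.19, SE, adjusted p = 6.6e-06).

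Of the 36, 5 had a negative and none a positive difference from the response with NT siRNA, against 3.2% and 3.99% of all genes. The counts were 8 and 2 when replicate numbers entered the fit as a block and 9 and 2 with replicates 1 and 3 alone. Leaving out each library in turn gave 3 to 5 negative differences, with 3 when replicate 1 or 3 of DMSO or of lapatinib with FOXA1 siRNA, or replicate 1 or 3 of DMSO with NT siRNA, was left out. TXNIP rose by 2.6 with NT siRNA, a difference of -0.73 ± 0.11 (SE, adjusted p = 0.0033), and its control level was lower with DMSO (2052) and higher with lapatinib (12180.2). FBXO32 rose by 3.27 with NT siRNA, a difference of -0.92 ± 0.15 (SE, adjusted p = 0.0046), yet its mean with lapatinib was 10610.4 in depleted and 9676 in control cells, while the DMSO means were 2126 and 1025.

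The promoter of TXNIP is shown because it holds a forkhead match, given in capitals, 124 bases before the start and on the strand opposite to the gene. This window and those shown with the cell cycle and interferon genes are the 250 bases before the start in RefSeq's GRCh38.p14 annotation, written 5′ to 3′ on the strand of the gene (TXNIP: chr1:145996580-145996829, minus strand).
TXNIP: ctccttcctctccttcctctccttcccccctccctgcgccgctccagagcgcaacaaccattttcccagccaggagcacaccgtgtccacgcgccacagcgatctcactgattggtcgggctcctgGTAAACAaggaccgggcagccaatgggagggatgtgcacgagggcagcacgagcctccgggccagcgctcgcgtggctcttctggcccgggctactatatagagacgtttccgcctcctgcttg

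Motifs were searched on both strands of a 300-base window, 250 before to 50 after the first start listed, in 10873 tested genes with an entry. The forkhead letters TGTTTAC were in 4.82% of the promoters of genes called higher, 2.23% of those called lower and 2.24% of all. In the PI3K, AKT and FOXO list they were in 4 of 33. Another forkhead form that was searched, TGTTGAC, was in 1.93% of promoters of genes called higher. It was in 1.11% of those called lower, 1.48% of all and 0 of 33 in that list. A match describes the letters only.

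Genes of G1, DNA replication and mitosis fell. Of 26 G1 cyclins, CDK inhibitors and E2F genes, 11 fell and none rose past the fold limit, against 5.12% and 4.93% of all genes. The list median was -0.68. E2F1, the factor that starts S phase genes, went from 1065, 924 and 888 to 128, 130.0 and 94.9 (log2 fold change -3.01 ± 0.13, SE, adjusted p = 2.5e-06). CDC25A, the phosphatase that activates CDK2, went from 1279, 1251 and 1301 to 229, 271 and 202 (log2 fold change -2.43 ± 0.10, SE, adjusted p = 2.3e-06). The repressor E2F8 fell by 2.09, with a difference from NT siRNA of 1.16 ± 0.26 (SE, adjusted p = 0.022) that was lost when any one of 5 of the 12 libraries was left out, and CCNE1, cyclin E1, by 1.39.

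All 45 replication genes tested fell at any size and 31 of them past the fold limit, against 29.1% and 5.12% of all genes. The list median was -1.22. CDC6, which loads the replicative helicase, went from 9722, 7945 and 8746 to 1374, 1248 and 1185 (log2 fold change -2.78 ± 0.09, SE, adjusted p = 1.5e-06). UHRF1, which maintains DNA methylation at forks, went from 1577, 1369 and 1373 to 168, 182 and 139.8 (log2 fold change -3.12 ± 0.11, SE, adjusted p = 1.5e-06). The histone chaperone subunit CHAF1A went from 1189.9, 1070.4 and 1118 to 306, 324 and 321 (log2 fold change -1.81 ± 0.07, SE, adjusted p = 2.1e-06). For each of these 3 genes the lapatinib libraries lay within a narrow band far below DMSO. The genes were named for their small p, so this is no separate support.

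Mitosis genes fell by less. Of 56, 12 fell past the fold limit and 47 at any size, against 5.12% and 29.1% of all genes. At any size 1 rose, and the list median was -0.64. MKI67, the Ki-67 proliferation antigen, went from 13038, 10832 and 11303 to 5076, 6396 and 4426 (log2 fold change -1.13 ± 0.13, SE, adjusted p = 0.00014). AURKB, the Aurora B kinase, went from 531, 477 and 436 to 149, 187 and 146 (log2 fold change -1.57 ± 0.13, SE, adjusted p = 2.5e-05). The kinetochore protein SPC25 fell by 2.08, the cohesin regulator CDCA5 by 1.6, and CDK1, the mitotic kinase, picked out after its values were seen, by 1.09, or 0.996 without replicate 1 of DMSO. Replicate 2 of lapatinib was the highest of its group for MKI67, AURKB, SPC25 and CDCA5, and with replicates 1 and 3 alone 23 of the 56 fell past the fold limit.

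Part of the cell cycle genes responded less in depleted cells. The list medians with NT siRNA were -0.97 for G1, -1.80 for replication and -1.28 for mitosis. By the test of the difference, 4 of 26, 12 of 45 and 6 of 56 genes had a positive difference (depleted minus control), and 1 replication gene a negative one, against 3.99% positive and 3.2% negative over all genes. With the replicate block the positive differences were 10, 26 and 23, and with replicates 1 and 3 alone 11, 30 and 51. Leaving out each library in turn gave 1 to 7, 5 to 25 and 2 to 41. CDC6 fell by 3.43 with NT siRNA, a difference of 0.66 ± 0.14 (SE, adjusted p = 0.014). E2F1 differed by 0.8 ± 0.22 (SE, adjusted p = 0.044) and UHRF1 by 0.63 ± 0.17 (SE, adjusted p = 0.043), and both calls were lost when any one of 9 libraries was left out (adjusted p between 0.05 and 0.11). CDK1 kept 2038, 2689.8 and 2059 normalized counts with lapatinib in depleted cells against a control mean of 1064, although its DMSO mean was lower (4864 against 6504), a difference of 1.5 ± 0.25 (SE, adjusted p = 0.0046). MCM10 fell by 5.2 with NT siRNA, a difference of 1.02 ± 0.30 (SE, adjusted p = 0.06, or 0.0036 with the replicate block), which DESeq2 also called (adjusted p = 0.0072).

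The promoters of UHRF1 and MKI67 are shown because each holds the motifs that are common in its list. In UHRF1 the capitals mark 1 CCAAT box, 86 bases before the start, and 2 E2F sites (TTCCCGC), 104 and 14 before. In MKI67 they mark 2 CCAAT boxes, 98 and 24 before the start, and 2 CHR elements (TTTGAA), 47 and 29 before, with 1 base shared by the CHR and CCAAT letters nearest the start. The windows are chr19:4909251-4909500, plus strand, and chr10:128126424-128126673, minus strand.
UHRF1: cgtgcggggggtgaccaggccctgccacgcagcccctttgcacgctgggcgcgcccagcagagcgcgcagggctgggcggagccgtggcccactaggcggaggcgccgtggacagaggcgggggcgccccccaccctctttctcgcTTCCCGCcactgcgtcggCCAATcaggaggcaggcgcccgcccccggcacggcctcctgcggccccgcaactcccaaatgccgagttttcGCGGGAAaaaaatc
MKI67: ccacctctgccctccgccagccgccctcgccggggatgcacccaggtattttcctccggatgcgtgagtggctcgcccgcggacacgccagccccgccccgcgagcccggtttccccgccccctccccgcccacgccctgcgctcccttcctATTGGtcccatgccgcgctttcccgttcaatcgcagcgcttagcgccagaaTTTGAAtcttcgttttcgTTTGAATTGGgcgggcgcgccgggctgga

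E2F letters were in 19 of 39 replication promoters (48.7%) against 10.2% of all promoters. CHR letters were in 32 of 47 mitosis promoters (68.1%) against 9.84% of all, and CCAAT in 35 of 47 (74.5%) against 36.5%. Among genes called lower in depleted cells the shares were 13.7% for E2F, 12.8% for CHR and 40.6% for CCAAT. Among genes called higher they were 6.94%, 12.5% and 32.8%, so that the CHR share was nearly the same in both directions.

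**Figure D2:**
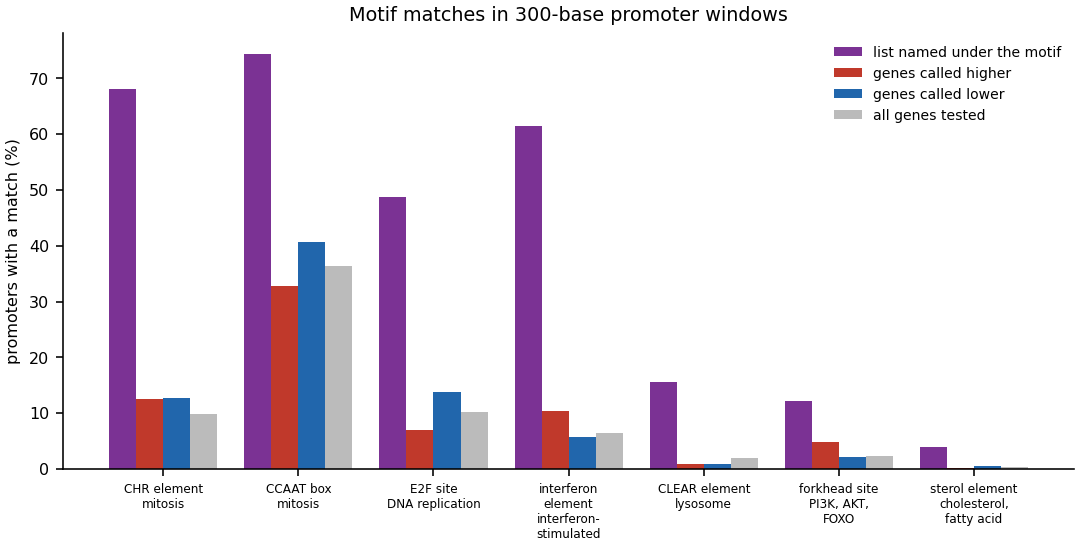
Bars give the percent of 300-base promoter windows with a match to each motif in the list named under it (purple), in genes called higher (red) or lower (blue) with lapatinib in depleted cells, and in all tested genes (gray). The lists stand far above all genes for the CHR element, the E2F site and the interferon element, while the interferon element is in 10.4% of genes called higher and 6.36% of all.

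Ribosome biogenesis genes were lowered a little. Of 46 nucleolar genes 38 fell at any size, 3 rose and 1 fell past the fold limit, LYAR, a nucleolar growth regulator, which went from 885, 850.5 and 840.2 to 411, 399 and 356 (log2 fold change -1.13 ± 0.08, SE, adjusted p = 1.1e-05). Over all genes 29.1% fell and 29% rose at any size, and 5.12% fell past the limit. The list median was -0.37, against -0.68 with NT siRNA. A positive difference from control cells was called for 21 of 46 and a negative one for none, against 3.99% and 3.2% of all genes. With the replicate block 36 were positive and 1 negative. Leaving out each library in turn gave 12 to 22 positive. LYAR differed by 0.61 ± 0.10 (SE, adjusted p = 0.0049). NOP56, a core protein of box C/D particles picked out after its values were seen, fell by 0.61 and by 1.15 with NT siRNA, a difference of 0.55 ± 0.08 (SE, adjusted p = 0.0021). Ribosomal protein genes rose slightly, 47 of 65 at any size and none past the fold limit, against 29% and 4.93% of all genes. Their median was 0.16. RPL12 rose by 0.38 and RPL15 by 0.23, and no difference from control cells was called in that list.

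Lipid and sugar metabolism fell in part. Of 32 cholesterol and fatty acid genes, 6 fell past the fold limit and 23 at any size, against 5.12% and 29.1% of all genes. The list median was -0.38. DHCR7, an enzyme late in cholesterol synthesis, went from 5349, 5843 and 4987 to 1814, 1856 and 1866 (log2 fold change -1.53 ± 0.06, SE, adjusted p = 2.1e-06). INSIG1, which retains the sterol sensor, fell by 1.46. Compared with NT siRNA, DHCR7 and INSIG1 fell less, with differences of 0.3 ± 0.08 (SE, adjusted p = 0.042) and 0.65 ± 0.13 (SE, adjusted p = 0.011), and 6 genes of the list had a positive difference, or 18 with the replicate block, 18 with replicates 1 and 3 alone and 1 to 9 without any one library. Over all genes 3.99% had a positive difference in the main fit. The difference of DHCR7 was lost when any one of 10 libraries was left out (adjusted p between 0.063 and 0.1). Of 23 glycolysis genes, 19 fell at any size and 3 past the fold limit, against 29.1% and 5.12% of all genes. The list median was -0.49. PFKFB4, a regulator of glycolytic flux, went from 244, 433 and 284 to 147, 130.0 and 113 (log2 fold change -1.29 ± 0.22, SE, adjusted p = 0.0012). The glucose transporter SLC2A3 fell by 1.18, or 0.78 without replicate 2 of DMSO, and ENO2 by 1.46 at no more than 9.56 normalized counts, which DESeq2 did not call. Oxidative phosphorylation subunits fell by less than 1 on the log2 scale, 34 of 51 at any size, against 29.1% of all genes. Their median was -0.19, and ATP5G1 (now ATP5MC1) fell by 0.96 and NDUFS8 by 0.87.

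**Figure D3:**
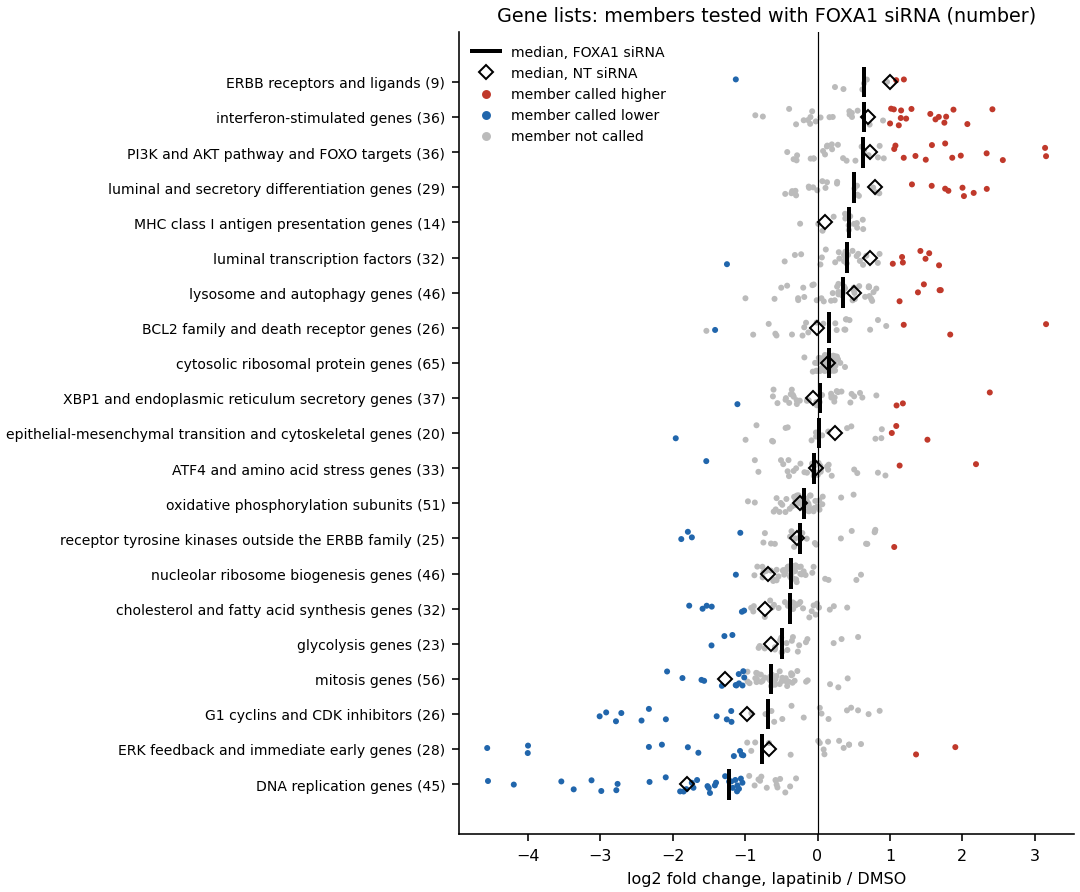
Each point is a member of 1 of 21 gene lists, placed by its log2 fold change between lapatinib and DMSO with FOXA1 siRNA, red or blue where called. Black bars are list medians with FOXA1 siRNA and open diamonds those with NT siRNA, and the replication list has the lowest median (-1.22 against -1.80).

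Of 33 ATF4 targets, 2 rose and 1 fell past the fold limit, against 4.93% and 5.12% of all genes, and 7 rose and 10 fell at any size, against 29% and 29.1%, with a median of -0.05. CHAC1, a glutathione-degrading enzyme, went from 77.3, 122 and 83.2 to 322, 616 and 336 (log2 fold change 2.19 ± 0.29, SE, adjusted p = 0.00032), with replicate 2 the highest in both groups. ATF3 rose by 1.13, or 0.97 with replicates 1 and 3 alone, and PSAT1, of serine synthesis, fell from 2679.7, 2450.4 and 2738 to 903, 1008 and 771 (log2 fold change -1.54 ± 0.10, SE, adjusted p = 8e-06). Of 37 endoplasmic reticulum genes, 3 rose and 1 fell past the fold limit, against 4.93% and 5.12% of all genes. At any size 17 rose and 16 fell, against 29% and 29.1%, with a median of 0.03. CREB3L1, a membrane-bound transcription factor of the secretory pathway, rose from 93.3, 153 and 102 to 535, 614 and 647 (log2 fold change 2.38 ± 0.17, SE, adjusted p = 1.6e-05), HERPUD1 rose by 1.09, or 0.99 without replicate 2 of lapatinib, and SDF2L1, a chaperone partner, fell by 1.11. Of 46 lysosome and autophagy genes, 33 rose and 8 fell at any size, against 29% and 29.1% of all genes. Past the fold limit 5 rose, against 4.93%, with a median of 0.35. GABARAPL1, which builds autophagosomes, rose from 306, 331 and 301 to 935, 1139 and 947 (log2 fold change 1.7 ± 0.10, SE, adjusted p = 5.4e-06). The kinase ULK1 rose by 1.13, TP53INP2 by 1.47 and TP53INP1 by 1.69, the last with a difference from NT siRNA of -0.91 ± 0.23 (SE, adjusted p = 0.032) that was lost when any one of 8 libraries was left out.

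Of 26 genes of apoptosis, 3 rose and 1 fell past the fold limit, against 4.93% and 5.12% of all genes, with a median of 0.16. BMF, a BH3-only protein that antagonizes BCL2, rose from 302, 183 and 233 to 856, 863 and 810.0 (log2 fold change 1.83 ± 0.15, SE, adjusted p = 3.1e-05), and BBC3, the BH3-only protein PUMA, from 162, 169 and 163 to 357, 372 and 386 (log2 fold change 1.19 ± 0.09, SE, adjusted p = 1.7e-05). The survival gene BCL2 fell from 78.3, 48.7 and 58.3 to 25.8, 20.2 and 22.4 (log2 fold change -1.41 ± 0.24, SE, adjusted p = 0.0013). The differences from NT siRNA were -0.16 ± 0.22 (SE, adjusted p = 0.75), -0.12 ± 0.23 (SE, adjusted p = 0.83) and 0.99 ± 0.41 (SE, adjusted p = 0.18) for BMF, BBC3 and BCL2, none past the test.

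Part of the interferon-stimulated genes rose. Of 36 tested, 16 rose and none fell past the fold limit, against 4.93% and 5.12% of all genes. At any size 20 rose and 2 fell, against 29% and 29.1%, and 14 did not pass, with a median of 0.64. The filter needs 10 counts in only 1 sample, so genes low with DMSO can enter through lapatinib samples alone. With at least 10 counts in every sample, 12 rose past the fold limit. SAMD9, an antiviral factor, went from 195, 161 and 225 to 835, 697 and 877 (log2 fold change 2.07 ± 0.14, SE, adjusted p = 1.2e-05), and IFI6, an antiviral membrane protein, from 231, 238 and 195 to 481, 427 and 548 (log2 fold change 1.15 ± 0.12, SE, adjusted p = 9.8e-05). PARP14 rose by 1.56, and SP110 by 1.0, which lay at the limit and was lost under several settings. Many of the list were low, such as IFIT1, picked out after its values were seen, with 11, 4.68 and 4.78 normalized counts with DMSO and 21.7, 33.7 and 9.18 with lapatinib, a call lost without any one of 4 libraries. Without replicate 2 of lapatinib, 10 genes of the list rose past the fold limit, and 10 with replicates 1 and 3 alone. With NT siRNA 12 rose and 2 fell, with a median of 0.70.

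The promoter of IFI6 is shown because it holds 3 matches to the interferon response letters TTCNNTTTC, in capitals, 156, 115 and 93 bases before the start and all on the opposite strand (chr1:27672193-27672442, minus strand). These letters were in 16 of 26 promoters of the list (61.5%), in 6.36% of all and in 10.4% of genes called higher.
IFI6: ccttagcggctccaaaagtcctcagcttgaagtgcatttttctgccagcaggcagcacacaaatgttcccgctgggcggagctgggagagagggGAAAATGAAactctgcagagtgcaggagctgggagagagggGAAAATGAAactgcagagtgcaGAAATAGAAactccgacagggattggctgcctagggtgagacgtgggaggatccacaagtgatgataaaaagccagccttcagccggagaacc

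Of 14 antigen presentation genes, 7 rose and 1 fell at any size, against 29% and 29.1% of all genes. None passed the fold limit, against 4.93% that rose and 5.12% that fell. The list median was 0.43 against 0.11 with NT siRNA. ERAP1, which trims peptides for MHC class I, went from 760.5, 795 and 727 to 1159, 1095 and 1038 (log2 fold change 0.54 ± 0.06, SE, adjusted p = 0.00018). B2M, the light chain of MHC class I, went from 9431, 9864 and 9481 to 12383, 13245 and 11412 (log2 fold change 0.38 ± 0.06, SE, adjusted p = 0.00053), against 0.17 with NT siRNA, a difference of 0.23 ± 0.11 (SE, adjusted p = 0.24, or 0.013 with the replicate block).

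Part of the luminal and secretory genes rose in depleted cells. Of 32 luminal transcription factors, 7 rose and 1 fell past the fold limit, against 4.93% and 5.12% of all genes. At any size 21 rose and 2 fell, against 29% and 29.1%, with a median of 0.41. ELF3, an epithelial ETS factor, had 11834, 10611 and 11119 normalized counts with DMSO and 29451, 30046 and 29391 with lapatinib (log2 fold change 1.42 ± 0.05, SE, adjusted p = 1.5e-06), against 1.35 with NT siRNA. KLF4, which maintains epithelial differentiation, rose from 1158, 1013 and 1094 to 3036, 3006 and 3362 (log2 fold change 1.54 ± 0.07, SE, adjusted p = 2.9e-06), and KLF5 by 1.04, or 0.98 without replicate 2 of DMSO, while MYBL1 fell by 1.25. Of 29 luminal and secretory genes, 8 rose and none fell past the fold limit, against 4.93% and 5.12% of all genes. The list median was 0.51. At any size 15 rose, 1 fell and 13 did not pass. The keratins KRT8 (0.07), KRT18 (-0.003) and KRT19 (0.11), picked out after their values were seen, did not pass the test. KRT7 rose by 0.27 and EPCAM fell by 0.12, both picked out in the same way. MUC1, a membrane mucin, went from 2949, 3171 and 3521 to 13109, 10004 and 15084 (log2 fold change 2.0 ± 0.14, SE, adjusted p = 1.4e-05). MUC15 went from 710.3, 705 and 697 to 2881, 3451 and 2986 (log2 fold change 2.16 ± 0.07, SE, adjusted p = 1.5e-06), and MUC16, the CA125 antigen, from 1464, 1005 and 1181 to 5968, 3436 and 5253 (log2 fold change 2.02 ± 0.21, SE, adjusted p = 8.7e-05). The secretoglobin SCGB1D2 went from 36.1, 60.8 and 40.1 to 211, 231 and 247 (log2 fold change 2.34 ± 0.19, SE, adjusted p = 2.7e-05). For these 4 secretory genes every lapatinib library exceeded every DMSO library. They were named for their small p, and groups did not overlap for 65.1% of all genes tested.

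Within the luminal lists the difference from NT siRNA was negative for 8 of 32 transcription factors and 4 of 30 secretory genes, against 3.2% of all genes. The difference was positive for 1 and 2, against 3.99%. With the replicate block it was negative for 12 and 9 and positive for 3 and 2, and with replicates 1 and 3 alone negative for 10 and 9. KLF4 differed by -0.55 ± 0.10 (SE, adjusted p = 0.0085), KLF5 by -0.53 ± 0.11 (SE, adjusted p = 0.015) and MUC15 by -0.87 ± 0.17 (SE, adjusted p = 0.012). MUC15 was nonetheless higher in depleted cells with lapatinib, at a mean of 3106 against 1108. GATA3, PIP and CEACAM6 were picked out after their values were seen. GATA3, the luminal zinc-finger factor, had 2699.8, 2808 and 2920.3 normalized counts with DMSO and 2842, 2695 and 3154 with lapatinib (log2 fold change 0.06 ± 0.07, SE, adjusted p = 0.46), while it rose by 0.86 with NT siRNA, a difference of -0.79 ± 0.12 (SE, adjusted p = 0.0027). PIP, a secreted luminal protein, had 23.1, 34.6 and 15.3 and 29.9, 45.2 and 30.6 normalized counts (log2 fold change 0.55 ± 0.32, SE, adjusted p = 0.18) and rose by 2.49 with NT siRNA, a difference of -1.93 ± 0.40 (SE, adjusted p = 0.015). CEACAM6, an adhesion glycoprotein, had 909, 1265 and 1102 and 669, 1064 and 807 (log2 fold change -0.35 ± 0.17, SE, adjusted p = 0.11) and rose by 1.0 with NT siRNA, a difference of -1.34 ± 0.28 (SE, adjusted p = 0.015).

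Of 20 genes of epithelial-mesenchymal transition and the cytoskeleton that were tested, 3 rose and 1 fell past the fold limit. Over all genes the shares were 4.93% and 5.12%. At any size 8 of the list rose and 5 fell, against 29% and 29.1% of all genes, and 7 did not pass, with a median of 0.02. The transcription factor SNAI1 fell from 179, 219 and 190.2 to 42.3, 56.8 and 49.98 (log2 fold change -1.96 ± 0.15, SE, adjusted p = 2.3e-05). CTGF (now CCN2) went from 205, 269 and 254 to 445, 1089.8 and 528 (log2 fold change 1.52 ± 0.32, SE, adjusted p = 0.0036), with replicate 2 the highest in both groups. TGFB2 rose by 1.09 and TGFBI by 1.03, or 0.93 without replicate 1 of DMSO and 0.97 without replicate 2 of lapatinib.

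The lapatinib response of depleted cells was then set beside that of control cells gene by gene. These comparisons share no sample, but they share replicate numbers. Over 13446 genes tested in both, the log2 fold changes had a Pearson r of 0.847 and a Spearman rho of 0.862 across genes, which are not independent replicates, and 86.3% had the same sign. The SD of the log2 fold changes was 0.665 with FOXA1 siRNA and 0.776 with NT siRNA. Of the 678 genes that rose in depleted cells, 448 were also called higher in control cells, and of the 704 that fell, 522 were also called lower. In control cells 6.64% of 13713 genes rose and 7.13% fell.

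A test of the difference of the 2 responses over 12 samples called 7.19% of 14012 genes at an adjusted p under 0.05, with 559 positive (3.99%) and 449 negative (3.2%). With the replicate block, 1561 were positive and 1292 negative, and with replicates 1 and 3 alone 1426 and 1092. Leaving out 1 library in turn gave 300 to 782 positive and 242 to 583 negative, and each of 7 libraries reduced a count by more than 1.5 times. These were replicate 1 of DMSO (355 positive and 266 negative), replicate 3 of DMSO (300 and 264) and replicate 1 of lapatinib (305 and 242) with FOXA1 siRNA, and replicate 1 of DMSO (302 and 255), replicate 3 of DMSO (342 and 271), replicate 3 of lapatinib (313 and 275) and replicate 1 of lapatinib (289 negative) with NT siRNA. Of the genes called in depleted cells, the response was larger there for 20 that rose and 38 that fell, smaller for 23 and 61, and not called as different for 635 and 605. With the replicate block it was larger for 62 and 73 and smaller for 63 and 121.

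**Figure D4:**
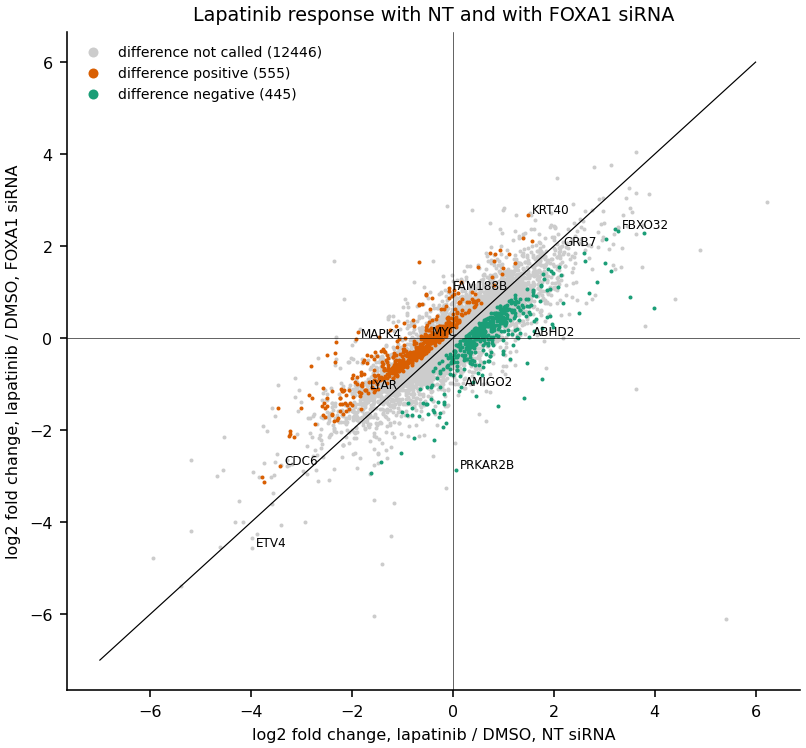
Each point is a gene tested in both kinds of cells, placed by its log2 fold change between lapatinib and DMSO with NT siRNA and with FOXA1 siRNA, with a line where both are equal. Orange points responded more positively and green points more negatively with FOXA1 siRNA, and AMIGO2 (-1.06 against 0.15) and ABHD2 (0.02 against 1.5) lie far from the line.

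Among genes whose response was kept, called in the same direction in both and with a difference at an adjusted p over 0.5, were 296 that rose and 241 that fell. A large p does not show that the responses were equal. With the replicate block, the difference passed the test for 1 of these rises and 1 of these falls. The most abundant were AHNAK, ELF3, GRB7, XBP1, NEBL and NFE2L1 among the rises and S100A9, HSPH1, ATP1B3, LIMK1, RRM2 and CCND1 among the falls. AHNAK, a large scaffold protein, went from 37855, 27094 and 30678 to 97369, 64979 and 74129.8 (log2 fold change 1.32 ± 0.16, SE, adjusted p = 0.00021), with a difference of -0.08 ± 0.20 (SE, adjusted p = 0.87). S100A9, a subunit of calprotectin, went from 17356, 22658 and 16109.8 to 5282, 7372 and 4914 (log2 fold change -1.66 ± 0.17, SE, adjusted p = 8.2e-05), with a difference of -0.1 ± 0.29 (SE, adjusted p = 0.9). NEBL rose by 1.24 and NFE2L1, which drives proteasome genes, by 1.2, with differences of -0.05 ± 0.06 (SE, adjusted p = 0.71) and 0.06 ± 0.08 (SE, adjusted p = 0.73). LIMK1 fell by 1.15. The chaperone HSPH1 (-1.09) and the sodium pump subunit ATP1B3 (-1.01) lay near the limit and were not called without replicate 2 of lapatinib, at -0.92 and -0.89, nor without replicate 1 of DMSO, at -0.997 and -0.995. HSPH1 differed by 0.2 ± 0.28 (SE, adjusted p = 0.75, or 0.034 with the replicate block).

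For 14 genes a rise called in control cells was under 0.25 in size in depleted cells with a difference that passed the test, and for 9 a fall was. ABHD2, a lipid hydrolase, had 5105, 4218 and 5135 normalized counts with DMSO and 4904, 4357 and 5267 with lapatinib in depleted cells, and means of 3114 and 8626 in control cells, with a difference of -1.47 ± 0.16 (SE, adjusted p = 0.0006). The depleted groups overlapped at a level between those of untreated and treated control cells. NEDD4L, a ubiquitin ligase for membrane transporters, had 113, 116 and 163 and 158, 144 and 148 in depleted cells and rose by 1.77 from a mean of 195 in control cells, a difference of -1.54 ± 0.18 (SE, adjusted p = 0.00081). LMOD1, an actin nucleator, had 228, 262 and 225 and 275, 277 and 283, against control means of 83.6 and 324, a difference of -1.74 ± 0.21 (SE, adjusted p = 0.00089). Untreated depleted cells thus lay between the untreated and treated control libraries for LMOD1 and below the untreated ones for NEDD4L. The log2 fold changes in control and depleted cells were 1.6 and 0.15 for KIAA0513, 1.09 and 0.18 for ARRB1, beta-arrestin 1, and 1.01 and 0.15 for the oligoribonuclease REXO2. Among the falls that were lost, the atypical kinase MAPK4 had 109, 107 and 105 and 116, 87.6 and 111 in depleted cells and fell by 1.91 in control cells, a difference of 1.91 ± 0.29 (SE, adjusted p = 0.0032). SYT12 (-1.38 and -0.25), NUAK2 (-1.07 and -0.03), the chemokine CCL2 (-1.47 and 0.02), CALHM1 (-1.89 and 0.13) and DKFZp686O24166, now NCR3LG1 (-1.11 and -0.2), were the others named, with the log2 fold change in control cells first. The difference of CALHM1 was lost when any one of 6 libraries was left out, and that of SYT12 without replicate 3 of lapatinib with NT siRNA.

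**Figure D5:**
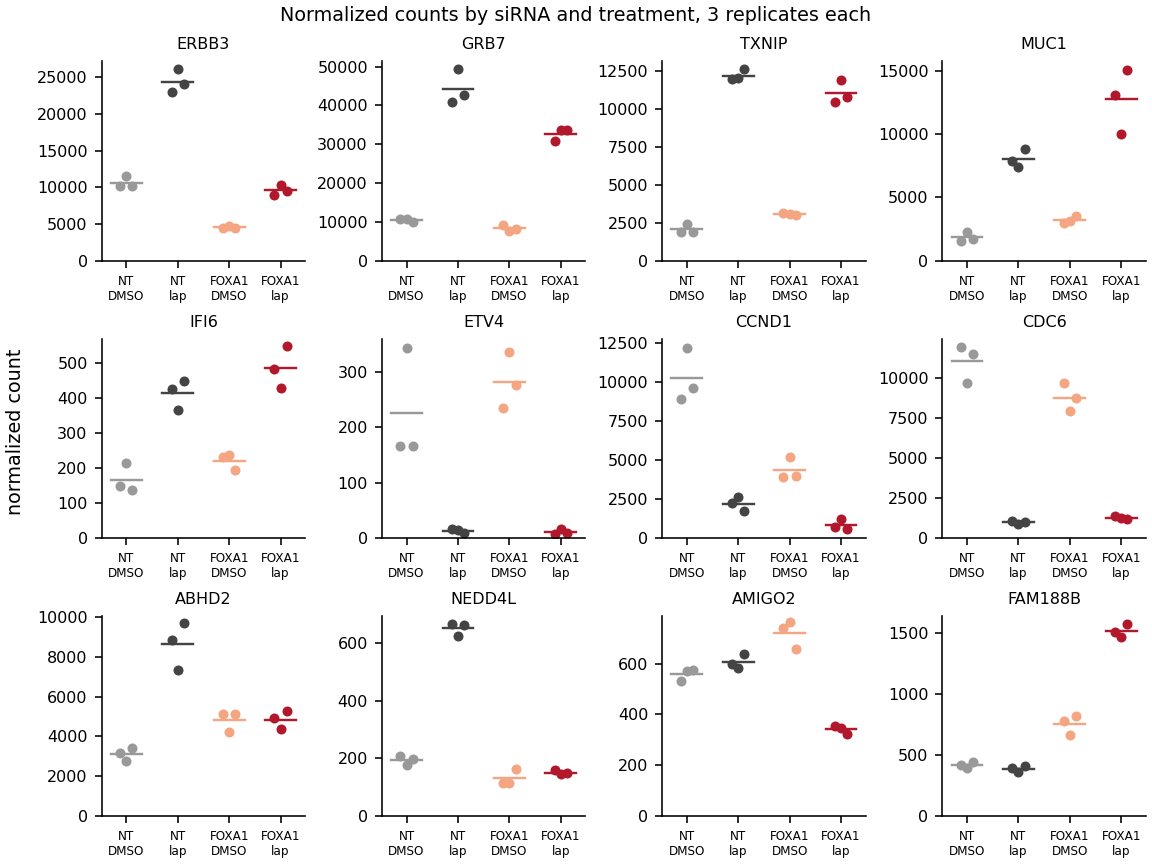
Normalized counts of 12 genes are plotted for each of 12 samples on linear axes from 0, with horizontal lines at the mean of 3 replicates. ERBB3, GRB7, TXNIP, MUC1 and IFI6 rose and ETV4, CCND1 and CDC6 fell with lapatinib under both siRNAs, whereas ABHD2 and NEDD4L moved by under 0.25 (log2) with FOXA1 siRNA and AMIGO2 and FAM188B by under 0.25 with NT siRNA.

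A response seen in depleted cells and under 0.25 in size in control cells was found for 4 genes that rose and 9 that fell. AMIGO2, a neuronal-type adhesion protein, went from 742, 764 and 657 to 355, 348 and 323 (log2 fold change -1.06 ± 0.08, SE, adjusted p = 2.3e-05), against 0.15 with NT siRNA, a difference of -1.2 ± 0.11 (SE, adjusted p = 0.00022). PARD6G, a cell polarity protein, went from 151, 155 and 145 to 51.6, 55.8 and 59.2 (log2 fold change -1.42 ± 0.13, SE, adjusted p = 4.3e-05), a difference of -1.23 ± 0.15 (SE, adjusted p = 0.0011). PRKAR2B, a regulatory subunit of protein kinase A, went from 92.3, 62.7 and 63.1 to 15.5, 2.89 and 11.2 (log2 fold change -2.87 ± 0.41, SE, adjusted p = 0.00047), against control means of 215 and 221, a difference of -2.92 ± 0.65 (SE, adjusted p = 0.019). ELFN2 fell by 1.4, PRRG4 by 1.21 and the noncoding RNA MGC12982 (now FOXD2-AS1) by 1.85. FAM188B (now MINDY4), a deubiquitinase, rose from 779.5, 666 and 819 to 1508, 1464 and 1572 (log2 fold change 1.02 ± 0.08, SE, adjusted p = 2.6e-05), or by 0.93 without replicate 2 of DMSO, with a difference of 1.11 ± 0.12 (SE, adjusted p = 0.0006). C12orf59 (now TMEM52B) rose by 1.05, or 0.95 without replicate 3 of DMSO and 0.97 without replicate 1 of lapatinib, LOC154822 (now LINC00689) by 1.21 and TEX19 by 1.08, or 0.84 without replicate 2 of lapatinib and 0.94 with replicates 1 and 3 alone. The differences of LOC154822 and TEX19 were lost when any one of 9 and 10 libraries, respectively, was left out.

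The response passed the test with opposite signs in the 2 kinds of cells, with a called difference, for 23 genes that rose and 36 that fell in depleted cells. PPTC7, a mitochondrial phosphatase, rose from 1752, 1913 and 1786 to 2753, 2865 and 2715 (log2 fold change 0.63 ± 0.05, SE, adjusted p = 2.5e-05) in depleted cells and fell by 0.24 in control cells, a difference of 0.89 ± 0.07 (SE, adjusted p = 0.00017). ENPP1, an ectoenzyme that hydrolyzes cGAMP and ATP, rose by 0.62 and fell by 0.46 in control cells, a difference of 1.1 ± 0.14 (SE, adjusted p = 0.0012). PLCXD2 rose by 0.95 and the elongation factor ELL2 by 0.27, against -0.54 and -0.28 in control cells. FURIN, a protease of the secretory pathway, fell from 4585, 4349.7 and 4474 to 3173, 3144 and 3288 (log2 fold change -0.47 ± 0.04, SE, adjusted p = 5.2e-05) and rose by 0.23 in control cells, a difference of -0.68 ± 0.08 (SE, adjusted p = 0.0006). MAP7D1, a microtubule-associated protein, fell from 2447, 2809.7 and 2263 to 1642, 1773 and 1519.9 (log2 fold change -0.59 ± 0.09, SE, adjusted p = 0.00057) and rose by 0.53 in control cells, a difference of -1.11 ± 0.13 (SE, adjusted p = 0.00071). The scaffold IQGAP1 fell by 0.18 and FAM113B (now PCED1B) by 0.53, against 0.28 and 0.34. Each of these responses was under 1 in size. Every lapatinib library of PPTC7, FURIN and MAP7D1 in depleted cells lay on one side of every DMSO library, as for 65.1% of all genes tested.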

How the data were processed

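RNAseq libraries of SKBR-3 cells were made from 12 samples, 3 in each of 4 groups set by the labels. The authors deposited, per gene and sample, an expected count as RSEM estimates it and a TPM value, on the hg38 build. The sources used here name RSEM, and the study's methods name Salmon for quantification, and whether counting used the strand is not stated, so overlapping and antisense genes cannot be separated with certainty. The submitters' processing notes list DESeq2 1.12.3 and R 3.2.2. The labels place the drug 48 h after siRNA, which differs from the study's methods.

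Expected counts were rounded and tested with edgeR 4.0.16 in R 4.3.3 by its quasi-likelihood test, with TMM scaling and at least 10 counts in at least 1 sample of the fit. Calls needed a change of 1 or more on the log2 scale and a p-value, adjusted by the method of Benjamini and Hochberg, below 0.05, and a difference of responses (an interaction over 12 samples) at an adjusted p under 0.05. Each SE printed is the size of the log2 fold change divided by the square root of the F value of that test. It therefore restates the test and is not a separate estimate of error. Deposited TPM served only for marker levels. The code was tested on simulated data. Alternatives were DESeq2 1.42.0, other scaling and filters, all 12 samples in one model, no fold minimum, a replicate block, leaving out each library and, added after seeing the data, replicates 1 and 3 only.

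Same-numbered samples deviated together over 12170 genes in all 18 pairs (r from 0.244 to 0.627), so that the numbers qualify as pairs. The values reported are from fits without a replicate term, which leave this pairing out, and the replicate block is an alternative. The block called more differences, 1561 positive and 1292 negative against 559 and 449. A difference not called in the reported fits can thus be called with the block.

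The 21 gene lists (764 genes) and the members were chosen with earlier results of these data known. Named genes were 7 genes of the study, the 10 largest changes in each direction among genes with a mean of at least 100 normalized counts and no overlap, up to 4 called genes by p in the main direction of a list and up to 2 in the other (2 where none was called), up to 6 genes in each direction whose response was lost or gained, up to 4 with opposite responses, and the 6 most abundant in each direction with a kept response. Of these, 3 genes are not reported here. Promoters and coordinates are from RefSeq on GRCh38.p14, and 20372 gene IDs matched. Expected counts summed to between 29948709 and 32271850 per depleted library, and tests cover the spread of 3 samples a group.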

Additional observations from a re-analysis of the deposited data

Results flagged for a closer look

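The lapatinib response differed between FOXA1-depleted and control cells, by the test of the difference over 12 samples, for 559 genes with a positive and 449 with a negative difference (depleted minus control, log2). Of the genes named by rule, the difference was positive for CALHM1 (2.03), MAPK4 (1.91), PLCXD2 (1.5), CCL2 (1.5), KRT40 (1.2), TEX19 (1.17), E2F8 (1.16), SYT12 (1.15), FAM188B (1.11), ENPP1 (1.1), LOC154822 (1.07), C12orf59 (1.05), NUAK2 (1.05), DKFZp686O24166 (0.92), PPTC7 (0.89), E2F1 (0.8), CDC6 (0.66), INSIG1 (0.65), UHRF1 (0.63), LYAR (0.61), ELL2 (0.56), CHAF1A (0.55), MYC (0.52) and DHCR7 (0.3). It was negative for PRKAR2B (-2.92), LMOD1 (-1.74), MGC12982 (-1.7), NEDD4L (-1.54), ABHD2 (-1.47), KIAA0513 (-1.44), PARD6G (-1.23), ELFN2 (-1.21), AMIGO2 (-1.2), MAP7D1 (-1.11), PRRG4 (-1.02), FBXO32 (-0.92), TP53INP1 (-0.91), ARRB1 (-0.89), MUC15 (-0.87), FAM113B (-0.87), INSR (-0.85), REXO2 (-0.84), TXNIP (-0.73), FURIN (-0.68), KLF4 (-0.55), KLF5 (-0.53), IQGAP1 (-0.45), ERBB2 (-0.31) and DDR1 (-0.24). Among genes picked out after their values were seen, it was PIP (-1.93), CEACAM6 (-1.34), GATA3 (-0.79), NOP56 (0.55), TAP2 (0.77), BOP1 (1.09), BIRC3 (1.42) and CDK1 (1.5). The difference of CHAF1A was lost when any one of 10 of the 12 libraries was left out.

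Groups of 3 samples were not tested for single outlying samples.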

How the results depend on the processing

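The counts of genes called in depleted cells kept within 1.5 times of 678 and 704 with DESeq2 (612 and 658), RLE scaling (671 and 713), upper-quartile scaling (688 and 690), no filter on low counts (712 and 739), at least 10 counts in every sample (493 and 518), all 12 samples in one model (679 and 717), the replicate block (714 and 726), and without any one library (624 to 690 and 612 to 737). In control cells, leaving out any one library gave 777 to 981 genes that rose and 917 to 1031 that fell. With no minimum on the fold change, 3988 genes rose and 4006 fell in depleted cells and 4177 and 4007 in control cells. Counts of called differences moved from 559 positive and 449 negative to 1561 and 1292 with the replicate block, 1426 and 1092 with replicates 1 and 3 of every group only (chosen after seeing the data), 821 and 630 with DESeq2, and 300 to 782 and 242 to 583 without any one library. The cause was not tested.

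The replicate block changed no call of a named response in depleted cells, and its p stands beside each printed difference whose call it changed. The sign of 5 named responses and 7 named differences changed. For responses in depleted cells, leaving out one library gave -0.0678 to 0.105 for ABHD2, -0.0344 to 0.0634 for CCL2, -0.0839 to 0.11 for MAPK4, -0.0109 to 0.0406 for MYC and -0.185 to 0.082 for NUAK2. With replicates 1 and 3 only, the responses were -0.0172 for MYC, 0.0924 for MAPK4, -0.0350 for CCL2 and 0.108 for NUAK2. For differences of responses, leaving out one library gave -0.261 to 0.0621 for AHNAK, -0.11 to 0.132 for ATP1B3, -0.347 to 0.0307 for BBC3, -0.317 to 0.0442 for BMF, -0.496 to 0.0422 for CCND1, -0.201 to 0.0733 for FOXA1 and -0.297 to 0.115 for S100A9. Genes at a few counts, such as EGR2, EGR3, RET and ENO2, are limited by depth.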

Other observations

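Some genes of antigen processing and cell survival moved in different ways in the 2 kinds of cells. BIRC3 and TAP2 were picked out after their values were seen. BIRC3, an inhibitor of apoptosis, had 38.1, 22.5 and 36.3 normalized counts with DMSO and 50.6, 57.8 and 49.98 with lapatinib in depleted cells (log2 fold change 0.73 ± 0.23, SE, adjusted p = 0.026), against -0.68 with NT siRNA, a difference of 1.42 ± 0.32 (SE, adjusted p = 0.021), which was lost without replicate 3 of lapatinib with NT siRNA (adjusted p = 0.057). TAP2, a subunit of the peptide transporter for MHC class I, went from 1116, 1145 and 1037 to 943, 993 and 824 (log2 fold change -0.24 ± 0.08, SE, adjusted p = 0.028), against -0.99 with NT siRNA, a difference of 0.77 ± 0.14 (SE, adjusted p = 0.0072). BOP1, a factor of large ribosomal subunit assembly picked out in the same way, went from 2184, 1727 and 2271 to 1885, 1519 and 1607 (log2 fold change -0.29 ± 0.12, SE, adjusted p = 0.063), against -1.37 with NT siRNA, a difference of 1.09 ± 0.25 (SE, adjusted p = 0.022). This difference was lost (adjusted p between 0.052 and 0.061) without replicate 1 of lapatinib with FOXA1 siRNA, or without replicate 1 of DMSO or of lapatinib with NT siRNA.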
